A study of Rattus norvegicus with 8 samples.

Results

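A group of 10 genes for axon guidance and neurotrophic cues was followed in rat annulus fibrosus cells (AFCs), the cells of the outer ring of the intervertebral disc. The members were taken by gene name from the deposited table, and all 10 (Sema3a, Nrp1, Nrp2, Ntn1, Ntn4, Slit2, Slit3, Robo1, Bdnf and Plxnd1) were found among its 31699 rows, with 1 row each. RNA-seq covered 8 samples, of which 4 carry the label Lv-Ctrl and 4 the label Lv-Piezo1. All 8 were Sprague Dawley AFCs under cyclic mechanical stretch (CMS), and no unstretched sample or sample without lentivirus is compared here. By the labels and methods, the Lv-Ctrl samples had received the control lentivirus pLVX-shRNA-Puro and the Lv-Piezo1 samples pLVX-shRNA-Puro-Piezo1, which carries a short hairpin RNA against the mechanosensitive channel Piezo1. By the study's methods, the cells were third-passage primary cultures from pooled annulus tissue of several rats and each group held 4 biological repeats. The methods count the cells of 1 isolation as 1 repeat, but the labels do not tie libraries to isolations, and p-values measure the spread between these 8 libraries. Values are TPM, transcript abundance corrected for length and for the total of the library, from which the sequencing depth cannot be read. Mitochondrial genes held 6.87% to 7.74% of TPM in the libraries labelled Lv-Ctrl and 5.69% to 6.16% in the others, and its part in any result was not tested.

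Guidance cues are secreted or membrane-bound ligands that attract or repel growing axons through receptors at the cell surface. Class 3 semaphorins such as Sema3a act through the co-receptors Nrp1 and Nrp2 with plexins as signalling partners, netrins act through DCC and UNC5 receptors, and Slits act through Robo receptors. Neurotrophins such as Bdnf support the survival and growth of neurons through Trk receptors. In the healthy disc nerve fibres are largely limited to the outer annulus, and many of these molecules also act on vessels and connective tissue cells.

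The paper reports that the knockdown by Lv-Piezo1 was verified, whereas the values here are RNA of these libraries only. In them the RNA of Piezo1, the target of the hairpin, went against the labels. It measured 26.7 to 33.0 TPM in the libraries labelled Lv-Ctrl and 37.7 to 41.4 TPM in those labelled Lv-Piezo1 (log2 fold change 0.38 with a standard error, SE, of 0.06, and adjusted p = 8.6e-04 by limma). Each direction given here is therefore that of libraries labelled Lv-Piezo1 against libraries labelled Lv-Ctrl. The tested genes as a whole were shifted upwards by a median of 0.14 on the log2 scale, which median-ratio scaling brought to -0.0046. With that scaling the log2 fold change of Piezo1 was 0.22 (adjusted p = 0.0028 by limma). Changes of the tested members and of some other genes are therefore also given after that scaling. Other changes are on the deposited TPM unless stated.

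The upstream sequence is shown for Slit3 and Bdnf, the tested members with the largest rise and fall, and for Robo1, the Slit receptor in the set. Windows of 300 bases (250 before and 50 after a gene's start) came from a table made from RefSeq on build GRCr8, in which 7 of the 10 members were matched. Sema3a, Slit2 and Ntn1 were not matched in it. Capitals mark matches on either strand to a cyclic AMP response element core (TGACG), to an AP-1 site (TGANTCA), to a TEAD site (GGAATG) or to a CArG box, the site of serum response factor. The 3 windows printed lie on the plus strand. Each of them holds a match, whereas window 1 of Robo1 and the windows of Nrp1, Nrp2, Ntn4 and Plxnd1 hold none.

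Slit3, chr10:20075679-20075978: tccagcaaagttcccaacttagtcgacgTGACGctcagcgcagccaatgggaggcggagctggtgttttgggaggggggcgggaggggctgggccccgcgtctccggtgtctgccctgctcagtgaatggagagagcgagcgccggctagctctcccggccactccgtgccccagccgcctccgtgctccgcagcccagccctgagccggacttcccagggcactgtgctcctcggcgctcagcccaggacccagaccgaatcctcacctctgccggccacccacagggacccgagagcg

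Bdnf, window 4 of 6, chr3:116637608-116637907: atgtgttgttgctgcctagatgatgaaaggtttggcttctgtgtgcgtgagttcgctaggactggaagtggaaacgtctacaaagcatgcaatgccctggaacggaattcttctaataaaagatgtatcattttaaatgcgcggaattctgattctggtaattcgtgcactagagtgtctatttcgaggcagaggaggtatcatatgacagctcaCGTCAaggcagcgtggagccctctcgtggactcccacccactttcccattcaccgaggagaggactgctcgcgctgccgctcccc

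Robo1, window 2 of 2, chr11:24714445-24714744: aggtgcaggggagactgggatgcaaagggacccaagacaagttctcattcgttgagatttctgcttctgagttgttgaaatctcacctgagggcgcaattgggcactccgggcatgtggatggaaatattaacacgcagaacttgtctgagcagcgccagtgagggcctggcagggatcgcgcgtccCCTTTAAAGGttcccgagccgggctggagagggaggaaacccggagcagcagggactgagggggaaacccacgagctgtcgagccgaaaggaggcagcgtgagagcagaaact

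In Slit3 the capitals are the response element core at position -222, in Bdnf the same core on the opposite strand at position -35, and in Robo1 a CArG box at position -63, counted from the start to the leftmost base. Among the 13 windows of the 7 members, 2 held the response element core, against 21.2% of all 33469 windows. The CArG box was in 1 window (1.64% of all), the AP-1 site in 1 window of Bdnf (7.33% of all) and the TEAD site in 0 (14.2% of all). The TPM values are sums over a gene and do not tell which of the 6 Bdnf starts was in use. A match describes the letters only.

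The members spanned a wide range of levels. In the libraries labelled Lv-Ctrl the order by mean TPM was Nrp2, Ntn1, Ntn4, Bdnf, Slit2, Slit3, Nrp1, Plxnd1, Sema3a and Robo1, from 85.1 ± 8.84 down to 0.0725 ± 0.0299 TPM (SD, n = 4). Neighbours whose samples overlapped were Ntn1 with Ntn4, Ntn4 with Bdnf, and Nrp1 with Plxnd1. In the libraries labelled Lv-Piezo1, Slit3 stood above Slit2 and Robo1 above Sema3a, while the other 6 kept their ranks. There only Slit3 and Slit2 overlapped among neighbours. The plot of TPM by sample shows these levels.

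**Figure D1:**
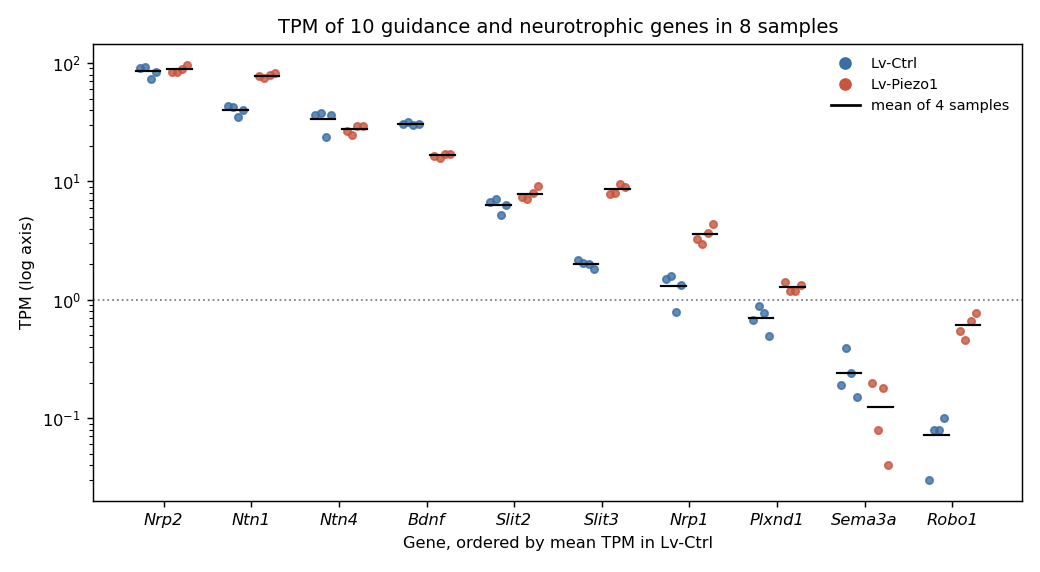
TPM of each member (log axis) in the 4 libraries labelled Lv-Ctrl (blue) and the 4 labelled Lv-Piezo1 (red), with the group mean as a black bar and 1 TPM as a dotted line. Slit3, Nrp1, Ntn1, Robo1 and Plxnd1 were higher in every red sample, Bdnf was lower in every red sample, and the groups overlap for Nrp2, Ntn4, Slit2 and Sema3a.

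Of the 10 members, 7 reached a mean of 1 TPM over the 8 samples and were tested with limma on log2(TPM + 1) among 13103 genes. Here "rose" and "fell" stand for an adjusted p below 0.05, and "called" also needs a log2 fold change of at least 1. Only Slit3 was called (1 of 7), against 7.67% of all tested genes, of which 4.91% were called higher and 2.76% lower. By adjusted p alone 5 of 7 members passed, against 58.2% of all genes. Of these, 4 were higher (41.9% of all genes) and Bdnf was lower (16.3% of all genes). Thus the share of members that passed was near that of genes in general, and the results below are about single genes. In bulk RNA, fewer cells that express a gene and less RNA per cell cannot be told apart.

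Slit3, a secreted ligand of Robo receptors, had the largest log2 fold change of the tested members. It measured 2.17, 2.03, 2.00 and 1.83 TPM in the libraries labelled Lv-Ctrl and 7.76, 8.05, 9.44 and 8.96 TPM in those labelled Lv-Piezo1. The groups were far apart, with means of 2.01 ± 0.140 and 8.55 ± 0.782 TPM (SD, n = 4), a ratio of 4.26. The log2 fold change was 1.66 (SE 0.08, adjusted p = 2.9e-07 by limma) and 1.54 after median-ratio scaling. Its paralogue Slit2 moved far less. Slit2 measured 6.71, 7.15, 5.20 and 6.28 TPM against 7.34, 7.04, 7.91 and 9.07 TPM, so the groups overlapped. Its log2 fold change of 0.27 (SE 0.10, adjusted p = 0.047 by limma) fell to 0.13 after median-ratio scaling (adjusted p = 0.22 by limma), and the exact two-sided permutation test gave p = 0.057. Leaving out any single library other than the replicates numbered 2 also took its adjusted p past the threshold, to between 0.061 and 0.12 by limma.

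Robo1, a receptor of the Slits, was near the bottom of the table in the libraries labelled Lv-Ctrl, at 0.03, 0.08, 0.08 and 0.10 TPM. In the libraries labelled Lv-Piezo1 it measured 0.55, 0.46, 0.66 and 0.78 TPM, above every library labelled Lv-Ctrl. With a mean under 1 TPM it was not among the tested genes. When all 20242 genes with any value above 0 were fitted, its log2 fold change was 0.58 (SE 0.06, adjusted p = 1.4e-04 by limma), where 42.0% of genes had an adjusted p below 0.05. This scale understates the change of so low a gene, whose mean TPM differed by a ratio of 8.45. Values of this size rest on few reads, whose number is unknown.

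Netrin genes moved unequally. Ntn1, a laminin-related secreted cue, measured 43.3, 42.3, 34.8 and 39.9 TPM in the libraries labelled Lv-Ctrl and 77.9, 74.2, 79.4 and 81.7 TPM in those labelled Lv-Piezo1. The groups did not overlap, and the mean rose 1.95-fold. Its log2 fold change of 0.95 (SE 0.07, adjusted p = 3.1e-06 by limma) lay just below the fold limit for a call, and it was 0.79 after median-ratio scaling. Ntn4, a netrin found in basement membranes, measured 36.5, 37.9, 23.7 and 36.5 TPM against 26.7, 24.8, 29.4 and 29.3 TPM. Replicate 3 labelled Lv-Ctrl was lower than every other sample, while the remaining 3 of that label were higher than all 4 libraries labelled Lv-Piezo1. With all samples the log2 fold change was -0.26 (95% interval -0.58 to 0.06, adjusted p = 0.14 by limma). Without replicate 3 labelled Lv-Ctrl it was -0.42 (adjusted p = 7.8e-04 by limma), and after median-ratio scaling of all samples it was also -0.42 (adjusted p = 0.016 by limma).

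Among the semaphorin receptors, Nrp2 was the most abundant member and Nrp1 a minor one. Nrp1, which also binds VEGF, measured 1.51, 1.58, 0.79 and 1.34 TPM in the libraries labelled Lv-Ctrl and 3.29, 2.95, 3.68 and 4.39 TPM in those labelled Lv-Piezo1. All libraries labelled Lv-Piezo1 were higher, and the mean rose 2.74-fold. Its log2 fold change was 0.99 (SE 0.15, adjusted p = 3.7e-04 by limma) and 0.89 after median-ratio scaling. It fell just short of a call, and it was called with a pseudocount of 0.1 (log2 fold change 1.42) and when replicate 1, 2 or 4 labelled Lv-Ctrl or replicate 1 or 2 labelled Lv-Piezo1 was left out (1.01 to 1.06). Nrp2 measured 91.1, 92.4, 73.1 and 83.9 TPM against 84.7, 83.3, 88.7 and 96.8 TPM, with overlapping groups. The log2 fold change of Nrp2 was 0.06 (95% interval -0.12 to 0.23, adjusted p = 0.56 by limma), and it turned to -0.10 after median-ratio scaling and to -0.013 without replicate 3 labelled Lv-Ctrl.

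Plxnd1, a plexin receptor of semaphorins best known from vessels, had a mean just under 1 TPM over the 8 samples and so missed the limit for testing. It measured 0.67, 0.88, 0.77 and 0.49 TPM in the libraries labelled Lv-Ctrl and 1.42, 1.19, 1.18 and 1.34 TPM in those labelled Lv-Piezo1, again without overlap. Fitted with all 20242 genes, it rose by 0.43 on the log2 scale (SE 0.08, adjusted p = 0.0041 by limma). Sema3a, a repellent for sensory axons, was barely present. Its values were 0.19, 0.39, 0.24 and 0.15 TPM in the libraries labelled Lv-Ctrl and 0.20, 0.08, 0.18 and 0.04 TPM in those labelled Lv-Piezo1. The groups overlapped, and the same fit gave a log2 fold change of -0.14 (adjusted p = 0.16 by limma). Of the 3 members below the limit, 2 did not overlap between the groups, against 15.9% of all rows above 0 with a mean under 1 TPM.

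Bdnf, brain-derived neurotrophic factor, was the member that fell. It measured 30.7, 31.6, 30.1 and 30.5 TPM in the libraries labelled Lv-Ctrl and 16.4, 15.8, 17.2 and 16.9 TPM in those labelled Lv-Piezo1. The replicates of each group lay close together, at 30.7 ± 0.639 and 16.6 ± 0.625 TPM (SD, n = 4), so that the mean under the label Lv-Ctrl was 1.85 times the other. The log2 fold change was -0.85 (SE 0.04, adjusted p = 2.9e-07 by limma), below the fold limit for a call on TPM as deposited. With median-ratio scaling it was -1.01 (adjusted p = 5.9e-08 by limma), which counts as a call. Among the 7 tested members, the groups did not overlap for 4 (54.2% of all tested genes), with Slit3, Ntn1 and Nrp1 higher (39.8% of all genes) and Bdnf lower (14.5%). For each of these 4, and for Robo1 and Plxnd1, the exact two-sided permutation test gave p = 0.029, the lowest value possible with 4 samples a group.

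**Figure D2:**
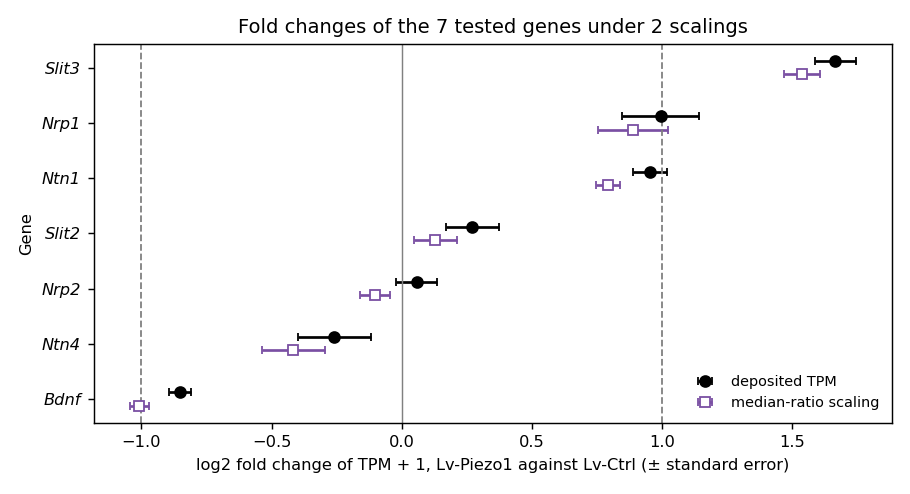
Log2 fold change of TPM + 1 with its SE for the 7 tested members, on the deposited TPM (black circles) and after median-ratio scaling (open squares). Dashed lines mark a log2 fold change of 1 in either direction. Only Slit3 lies beyond 1 on the deposited values, and Bdnf goes from -0.85 to -1.01 after scaling.

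Ratios of TPM within a sample do not depend on how the samples were scaled. Such ratios were formed for 4 pairs, chosen after the values had been seen. Slit3 over Slit2 was 0.323, 0.284, 0.385 and 0.291 in the libraries labelled Lv-Ctrl and 1.06, 1.14, 1.19 and 0.988 in those labelled Lv-Piezo1. The ratio was thus higher in all 4 libraries labelled Lv-Piezo1, by 1.78 on the log2 scale, and Slit3 came level with Slit2. Nrp1 over Nrp2 went from 0.0151 ± 0.00291 to 0.0403 ± 0.00421, so Nrp2 stayed far above Nrp1 in each sample. Ntn1 over Ntn4 went from 1.22 ± 0.175 to 2.85 ± 0.132, and Ntn1 over Bdnf from 1.304 ± 0.105 to 4.73 ± 0.0873 (SD, n = 4). The groups did not overlap for any of the 4 pairs, which the choice of pairs largely fixed, so no test is given.

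**Figure D3:**
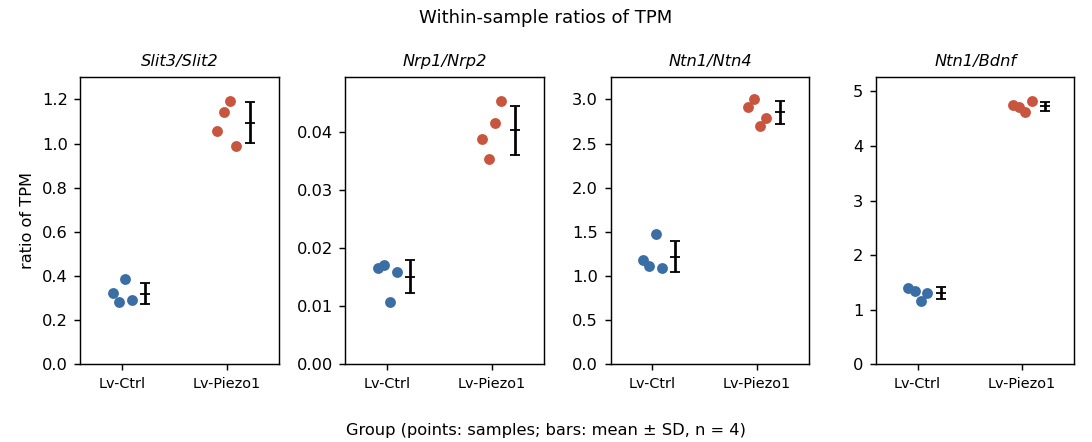
Ratio of TPM within each sample for 4 pairs of members (points), by group label, with mean ± SD (n = 4) beside the points and axes from 0. Every sample labelled Lv-Piezo1 lies above every sample labelled Lv-Ctrl, and the mean ratio of Slit3 to Slit2 goes from 0.321 to 1.10.

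Genes with the most similar course over the 8 samples were found by the root mean square difference of centred log2(TPM + 1). Closest to Slit3 were Sdc3, a heparan sulfate proteoglycan of the cell surface (difference 0.070), Des, the intermediate filament desmin (0.074), and Trpv2, a calcium-permeable channel (0.075). Sdc3 went from 1.87 to 8.14 TPM on average and Des from 13.1 to 44.2 TPM. Closest to Bdnf were Msmo1, an enzyme of sterol synthesis (0.023), Fibin (0.031) and Adm, which encodes the peptide adrenomedullin (0.034). Mean Msmo1 went from 104 to 58.1 TPM and mean Adm from 1596 to 853 TPM. With only 2 groups, any gene of like size and direction comes close by this measure.

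The wider pathway was read from 5 lists with 133 genes in all, of which 80 were tested. In total 15 were called (18.8%, against 7.67% of all tested genes), 10 higher and 5 lower, and 14 of these were not members. The lists were written with earlier results of these data known, so these shares describe the lists and support nothing further.

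Of 30 tested guidance ligands, 3 were called higher and 2 lower, with a median log2 fold change of 0.16. Beside Slit3, the transmembrane semaphorin Sema6b rose from 1.01 ± 0.312 to 3.42 ± 0.141 TPM and Sema7a, a membrane-anchored semaphorin, from 13.98 ± 1.48 to 31.0 ± 0.677 TPM (SD, n = 4). Netrin G1, encoded by Ntng1 and tethered to the membrane, fell from 5.85 ± 0.618 to 1.46 ± 0.339 TPM, and Sema5a fell from 2.12 ± 0.230 to 0.538 ± 0.0772 TPM. The adjusted p of these 4 genes was at most 5.4e-05 by limma, and no sample crossed between the groups. After median-ratio scaling Sema7a was at 0.94 on the log2 scale, below the limit for a call.

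Of 14 tested guidance receptors 10 rose and 1 fell, against 41.9% and 16.3% of all tested genes, with a median log2 fold change of 0.50 against 0.14 for all genes. Only 14 of 36 listed receptors reached a mean of 1 TPM over both groups. Among the 10 that rose, Ephb6 (0.605 and 1.85 TPM) and Robo2 reached it only through the libraries labelled Lv-Piezo1. The counts and the median thus rest partly on that limit and support nothing further. The single called receptor was Epha10, an ephrin receptor, which fell from 4.89 ± 0.496 to 1.44 ± 0.217 TPM (adjusted p = 7.0e-06 by limma). Partners of the members, named after their values were seen, included Unc5b, a netrin receptor, at 46.2 ± 6.01 and 78.1 ± 4.59 TPM (log2 fold change 0.75, adjusted p = 1.0e-04 by limma). Plxna1, a plexin that pairs with neuropilins, measured 14.2 ± 0.603 and 20.9 ± 0.739 TPM (log2 fold change 0.52, adjusted p = 1.5e-05 by limma). Robo2, a further Slit receptor, measured 0.978 ± 0.161 and 1.96 ± 0.351 TPM (log2 fold change 0.58, adjusted p = 0.0036 by limma). After median-ratio scaling the log2 fold changes of Unc5b, Plxna1 and Robo2 were 0.59, 0.37 and 0.48. The netrin receptor Dcc was listed at 0 in all 8 samples.

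Of 21 tested intracellular transducers 3 were called, all higher. Dpysl3, a collapsin response mediator protein, rose from 1.51 ± 0.318 to 12.4 ± 2.30 TPM, and the small GTPase Rnd1 from 17.0 ± 3.43 to 55.2 ± 3.84 TPM. Mical1, an oxidase of actin that acts below plexins, rose from 8.83 ± 0.513 to 18.8 ± 0.598 TPM. Their log2 fold changes were 2.41, 1.66 and 1.01 (adjusted p at most 3.4e-06 by limma), and Mical1 dropped to 0.86 after median-ratio scaling.

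Neurotrophic ligands moved in both directions. Cntf, ciliary neurotrophic factor, rose from 4.57 ± 0.782 to 19.2 ± 0.654 TPM, and the heparin-binding factor Mdk from 10.6 ± 0.745 to 25.3 ± 3.12 TPM (SD, n = 4), with an adjusted p of at most 4.6e-06 by limma. Of 10 tested ligands 3 rose, all of them called, and 3 fell, the latter being Bdnf, Artn and Gdnf, and the median log2 fold change was 0.0047. Artn and Gdnf, both ligands of the RET system, had log2 fold changes of -0.63 and -0.29 (adjusted p at most 0.0079 by limma).

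Receptors for these factors were mostly low, with 5 tested of 16 listed genes, of which 15 were in the table. Ntrk2, which encodes the BDNF receptor TrkB, measured 2.73, 3.12, 2.21 and 2.20 TPM in the libraries labelled Lv-Ctrl and 0.39, 0.45, 0.41 and 0.29 TPM in those labelled Lv-Piezo1. Like Bdnf it was lower in all libraries labelled Lv-Piezo1 (log2 fold change -1.36, SE 0.12, adjusted p = 1.7e-05 by limma). Sort1, encoding sortilin, which binds pro-neurotrophins, rose from 4.71 ± 0.520 to 21.9 ± 2.01 TPM, and its relative Sorcs1 fell from 2.54 ± 0.516 to 0.248 ± 0.123 TPM (adjusted p at most 3.0e-05 by limma). Il6st, which encodes gp130, a shared receptor chain of the Cntf family, went from 34.9 ± 3.76 to 56.8 ± 4.14 TPM. Ngfr, the low-affinity neurotrophin receptor, did not exceed 0.14 TPM in any sample.

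**Figure D4:**
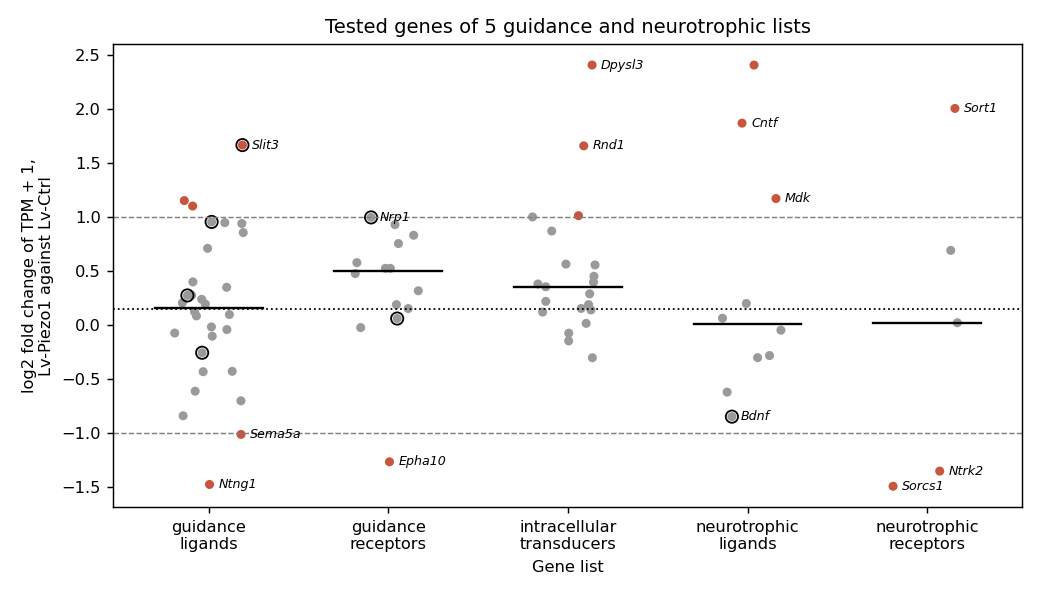
Log2 fold change of TPM + 1 for each tested gene of 5 lists (points), with called genes in red, members circled, the median of each list as a black bar and that of all tested genes (0.14) as a dotted line. Cntf (1.87) and Bdnf (-0.85) lie on opposite sides among the neurotrophic ligands, and the bar of the guidance receptors (0.50) is the highest of the 5.

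Markers of other cell types moved with the groups in part. Annulus genes were abundant, with 8459 to 9795 TPM summed over 11 genes in libraries labelled Lv-Ctrl and 11022 to 11850 TPM in those labelled Lv-Piezo1, while Tnmd was at 0 in 7 samples. Calls in that list went both ways, with Col12a1 lower (1560 to 517 TPM), Dcn lower (1456 to 519 TPM) and Comp higher (0.738 to 2.86 TPM). Short of a call, Fmod and Mkx fell, with log2 fold changes of -0.99 and -0.76. Scx, Col1a1, Col1a2 and Col5a1 rose short of a call, by 0.89, 0.83, 0.71 and 0.47. The median log2 fold change of the annulus list was 0.26. Of the neuronal markers Rbfox3, Elavl3 and Elavl4 were at 0 in all samples, and 1 of 2 tested markers was called higher (Tubb3) and 1 lower (Snap25), with a sum of 5.97 to 7.63 against 11.5 to 12.5 TPM. Below the limit for testing, Stmn2 measured 0 to 0.09 TPM under the label Lv-Ctrl and 1.02 to 1.26 TPM under Lv-Piezo1. Syt1 went the other way, with 0.09 to 0.15 TPM and 0 to 0.07 TPM. The Schwann cell marker Sox10 was at 0 in all samples, and that list's sum of 321 to 332 against 140 to 150 TPM was nearly all S100b. Endothelial markers, which bear on Nrp1 and Plxnd1, summed to 25.4 to 34.2 and 33.8 to 38.9 TPM, most of it Egfl7. Pecam1 did not exceed 0.21 TPM, Kdr 0.13 TPM and Cdh5 0.06 TPM in any sample, Emcn was at 0, and Esam was called higher. Macrophage markers summed to 21.5 to 22.9 and 36.2 to 41.7 TPM, nearly all of it Cd14 (20.9 to 25.8 TPM) and Cd68 (0.955 to 12.3 TPM). Cd68 was called higher and Cd14 was not called. The other 8 genes stayed below 1 TPM in every sample, with Adgre1, Tyrobp and Cd163 at 0. Nucleus pulposus and cartilage markers summed to 38.4 to 44.4 and 71.9 to 79.8 TPM, mostly Acan (31.6 to 47.1 TPM) and Cd24 (3.79 to 21.9 TPM). Only Cd24 was called, as higher, while Sox9 stayed level (3.89 and 3.86 TPM) and Tbxt was at 0. Summed over the list, smooth muscle and pericyte markers went from 828 to 863 TPM to 4604 to 4773 TPM. Of 10 tested genes, 6 were called higher and 2 lower. Most of the rise in the sum was Tagln (219 to 2730 TPM) and Acta2 (51.2 to 1344 TPM). Myh11, Cnn1, Mcam and Des, the second closest gene to Slit3, were also called higher. Kcnj8 (326 to 39.1 TPM) and Abcc9 (73.7 to 12.3 TPM) were called lower, and Rgs5 did not exceed 0.35 TPM. The part of these markers in the changes of the members was not tested.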

How the data were processed

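RNA-seq was measured in 8 samples of stretched rat AFCs, grouped by GEO's labels. The authors deposited TPM per gene. They removed low-quality reads, mapped the rest with HISAT2 and reconstructed transcripts with StringTie, while the paper's methods name FPKM. The submitters' processing notes name mm10, a mouse build, although the table holds rat Ensembl identifiers, so the build and annotation are unclear. All TPM columns share 1 total, so depth is unknown and precision rests on the spread between samples.

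Here log2(TPM + 1) of the 13103 genes with a mean of at least 1 TPM was fitted with limma 3.58.1 in R 4.3.3 (empirical Bayes with a trend, Benjamini-Hochberg adjustment over all tested genes, all 8 samples, no block). Genes were called at an adjusted p below 0.05 and a log2 fold change of 1 or more in either direction. The fit was tested on simulated data. Single genes were compared by an exact permutation test over 70 relabelings. The members and lists were chosen with earlier results of these data known. Named genes are the members, Piezo1, up to 3 called rises and 3 called falls in each list, and the 3 genes nearest to the largest riser and faller. Partner and further receptors, Artn, Gdnf and the ephrins and semaphorins of the closing section were chosen after their values were seen. Motifs were searched in RefSeq windows of build GRCr8. Alternatives were a pseudocount of 0.1, no filter or a mean of at least 5 TPM, median-ratio scaling, quantile normalization, no trend, a replicate block, no fold limit and leaving out each sample. The ratios and their runs without each sample were added after the values had been seen. Columns of group means were not used. Some listed genes are not reported here.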

Additional observations from a re-analysis of the deposited data

Results flagged for a closer look

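Ntn4 in replicate 3 labelled Lv-Ctrl, at 23.65 TPM, lay far below the other 3 samples of its group, which measured 36.5 to 37.9 TPM. The gap made up 0.904 of the group's range, above Dixon's 95% critical value for 4 samples. It was the only such sample among the 20 groups of values (10 members in 2 groups), and chance alone flags about 1 in 20. The same sample had the lowest median-ratio size factor (0.899, against 0.947 to 0.972 for the other 3 of that label), and its part in the low value was not tested.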

How the results depend on the processing

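Slit3 was called under all 15 alternatives, with log2 fold changes from 1.46 to 2.04. Ntn1 (0.79 to 0.99), Slit2 (0.08 to 0.32) and Ntn4 (-0.42 to -0.20) kept direction and stayed below a call under all of theirs, although the adjusted p of Slit2 ranged from 0.033 to 0.40 and that of Ntn4 from 7.8e-04 to 0.30 by limma. The count of called members was 2 with a pseudocount of 0.1, with median-ratio scaling and with quantile normalization, 1 to 2 without single samples and 5 with no fold limit. Nrp1 was at 1.42 with a pseudocount of 0.1 and at 0.88 to 1.06 without single samples. Nrp2 reversed to -0.10 with median-ratio scaling and to -0.0070 with quantile normalization, and spanned -0.013 to 0.098 without single samples, negative only without replicate 3 labelled Lv-Ctrl. Bdnf was called under the same pair of scalings, at -1.01 and -1.01. With a pseudocount of 0.1, the differences of the untested Sema3a, Robo1 and Plxnd1 were -0.63, 2.04 and 0.81. The 1005 called genes became 628 with a mean of at least 5 TPM and 7626 with no fold limit, and the 15 called list genes became 9 and 52. Those 9 were all higher, whereas the main fit called 10 list genes higher and 5 lower. The share of higher genes among all called genes went from 64.1% to 52.3% with median-ratio scaling and 48.8% with quantile normalization. Same-numbered samples did not deviate together (correlations of -0.06 to -0.01 across genes), no sample correlated best with its own number, and the replicate block gave 1 called member, 15 list genes and 1004 genes. The cause of these shifts was not tested. Low TPM and unknown depth limit what can be said of Robo1, Sema3a and Plxnd1.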

Other observations

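Ephrins and further semaphorins also moved in both directions, below the limit for a call. These genes were picked after their values were seen. Efnb1, a transmembrane ephrin, went from 3.04 ± 0.177 to 6.79 TPM on average and Efna3 from 6.998 to 12.1 TPM, while Efna5 went from 16.2 to 10.2 TPM. Sema3c, a secreted class 3 semaphorin, went from 81.1 ± 8.08 to 44.6 ± 2.86 TPM (SD, n = 4), a log2 fold change of -0.84 (adjusted p = 1.6e-05 by limma) that reached -1.004 after median-ratio scaling. Sema4a went from 5.05 to 9.95 TPM and Sema6c from 4.58 to 9.70 TPM. None of these 6 genes had overlapping groups, as for 54.2% of all tested genes.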
